A study of Mus musculus with 28 samples.

Results

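The BCL2 family of apoptosis regulators was followed through 10 genes out of 54429 in the count table: Bcl2, Bcl2l1, Mcl1, Bax, Bak1, Bbc3, Pmaip1, Bcl2l11, Bid and Bad. They were chosen by symbol, for their known place in the mitochondrial route to cell death; the rule uses no measured value, but earlier results of these data were known when it was set. All 10 had counts in all 28 libraries and passed the filter on low counts in every comparison. The libraries are bulk RNA-seq of O9-1 cells, an established mouse line of cranial neural crest, the embryonic cells that build much of the face. Cells were cultured at 21% O2 (normoxic, 4 libraries a group) or 0.5% O2 (hypoxic, 3 libraries a group), in each of 4 culture types. Proliferating cells were kept in DMEM conditioned by STO feeder cells, with 15% FCS, 25 ng/ml bFGF, 5 ng/ml LIF, beta-mercaptoethanol at 55 µM and non-essential amino acids at 0.1 mM; their time at 0.5% O2 is not given in the sources used here. Osteoblast cultures spent 10 days in alpha-MEM with 10% FCS, 10 mM beta-glycerophosphate, 0.1 µM dexamethasone and 100 ng/ml BMP-2. Chondrocyte cultures spent 3 days in that osteoblast medium and then 7 days as micromass on matrigel, in alpha-MEM with 5% FCS, insulin-transferrin-selenium, 0.1 µM dexamethasone, 10 ng/ml TGF-beta3 and 50 ng/ml BMP-2. Smooth muscle cultures spent 3 days in DMEM with 10% FCS. All media held penicillin and streptomycin, and all cultures were kept at 37 °C in 5% CO2. The study asked how low oxygen bears on these differentiations. All groups are 1 cell line, and nothing in the labels says that replicates came from separate cultures, so the p-values measure the spread between these libraries, which may be technical.

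BCL2 family proteins decide whether the outer membrane of the mitochondrion is breached, the step that releases cytochrome c and sets off the caspases. Anti-apoptotic members such as BCL2, BCL-XL (the product of Bcl2l1) and MCL1 hold the pore-forming effectors BAX and BAK in check, and BH3-only proteins carry stress signals to both by binding the guardians or by engaging the effectors. In the embryonic neural crest the best known trigger of this route is p53, a transcription factor that activates Bax, Bbc3 and Pmaip1, and excess p53 activity is a known cause of craniofacial defects in the mouse. Several members are also controlled by cleavage, phosphorylation or protein turnover, none of which RNA counts can show.

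Levels are given as CPM, the counts of a gene in each 1000000 counts of its library, scaled by edgeR's TMM factors over all 28 libraries, and as RPKM where genes are compared with each other, since only that scale divides by exon length. A gene is said to rise or fall where edgeR's quasi-likelihood test gave a Benjamini-Hochberg adjusted p under 0.05 over all genes tested; other values are given without such a verb. Libraries held 19869271 to 64693346 counts and the lowest count of any of the 10 genes in any library was 22. The 3 libraries labelled hypoxic smooth muscle stood apart from the other 25. Mitochondrial ribosomal RNA took 11.6% to 13.3% of their counts, against at most 0.0889% elsewhere, and their 10 most abundant genes took 27.1% to 28.5%, against at most 16.5%. They also went against their label: the summed level of 5 smooth muscle markers (Acta2, Tagln, Cnn1, Myh11, Myocd) was 28.5 to 42.3 CPM there, 3324 to 3758 CPM in normoxic smooth muscle and 47.7 to 53.1 CPM in normoxic proliferating cells. Myocd was at 0 in these libraries, as in hypoxic proliferating cells. The 5 neural crest markers summed to 479 to 546 CPM in these 3 libraries, with Twist1 alone at a mean of 434 CPM. Elsewhere their sum ran from 78.6 CPM in a normoxic chondrocyte library to 261 CPM in a hypoxic osteoblast library. Sox10, Foxd3 and Ngfr were at 0 in these 3 libraries, as in both proliferating groups and hypoxic osteoblasts. Of 5 blood markers, Cd68 stood at 35.0 ± 2.01 CPM (SD, n = 3) against 0.645 ± 0.163 in normoxic smooth muscle. Adgre1, Hbb-bs and Cd3e were at 0 in all hypoxic groups, these libraries included. Their values below are therefore those of the libraries labelled hypoxic smooth muscle, and each pattern over all groups is also given without them. In comparisons that use them, oxygen cannot be told apart from these departures. In bulk RNA a lower share of a cell type and less RNA per cell cannot be told apart. The other labels were met in part. The 5 chondrocyte markers summed to 2794 to 8415 CPM in normoxic and 842 to 1255 CPM in hypoxic chondrocyte cultures, against 104 to 143 CPM in normoxic proliferating cells. The 5 osteoblast markers reached only 62.7 to 146 CPM in normoxic and 366 to 393 CPM in hypoxic osteoblast cultures, below the 780 to 2549 CPM of both chondrocyte groups. They summed to 58.4 to 67.4 CPM in normoxic and 46.0 to 46.8 CPM in hypoxic proliferating cells. Normoxic osteoblast replicates 1 to 3 held 62.7, 72.8 and 71.5 CPM, near the proliferating level, and replicate 4 held 146 CPM. The smooth muscle markers were not particular to smooth muscle: they summed to 3069 to 4687 CPM in normoxic osteoblasts, overlapping normoxic smooth muscle, to 1717 to 2007 CPM in hypoxic osteoblasts and to 1702 to 2290 CPM in the chondrocyte groups. They thus moved with the osteoblast comparisons, oxygen included, and their part in the values of the 10 genes was not tested. Normoxic osteoblast replicate 4 stood apart from the other 3 libraries of its group over all genes, with a chi-square per degree of freedom of 91.1 to 97.05 against each of them, where those 3 gave 2.89 to 3.88 among themselves. Its chondrocyte markers summed to 1446 CPM, above every hypoxic chondrocyte library, against 179 to 196 CPM in the other 3 and 588 to 631 CPM in hypoxic osteoblasts. The 6 hypoxia markers summed to 1245 to 2402 CPM in the hypoxic groups and 130 to 695 CPM in the normoxic groups.

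On the per-length scale Mcl1, the short-lived guardian, led the 10 genes in 6 of the 8 groups, from 29.6 ± 2.14 RPKM (SD, n = 4) in normoxic smooth muscle to 69.0 ± 4.41 RPKM (SD, n = 3) in hypoxic osteoblasts. Bax led in the other 2 groups. In hypoxic proliferating cells Bax stood at 39.0 ± 0.909 RPKM and Mcl1 at 34.2 ± 1.62 RPKM, and in the libraries labelled hypoxic smooth muscle Bax stood at 132 ± 6.61 RPKM and Mcl1 at 43.0 ± 4.69 RPKM. Bcl2, Bcl2l11 or Pmaip1 took the last place in every group. In both osteoblast groups Bcl2l1 held the second place, at 19.7 ± 1.77 RPKM in normoxic and 57.1 ± 4.60 RPKM in hypoxic cells. Among the 8 group means, Pmaip1 spanned the widest range, 14.3-fold between normoxic osteoblasts and normoxic chondrocytes, and Mcl1 the narrowest, 2.33-fold. Bax spanned 8.91-fold over 8 groups and 2.64-fold over the 7 groups without the libraries labelled hypoxic smooth muscle. The same step took Bcl2 from 5.97-fold to 4.02-fold, Bid from 5.90-fold to 4.31-fold, Bbc3 from 4.01-fold to 3.50-fold and Bad from 2.45-fold to 1.97-fold, and left the other genes where they were. The median range of the 10 genes was 2.52 on the log2 scale, beside 2.22 for the 16540 genes that passed the filter over all groups; without the libraries labelled hypoxic smooth muscle it was 1.92, beside 1.65.

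**Figure D1:**
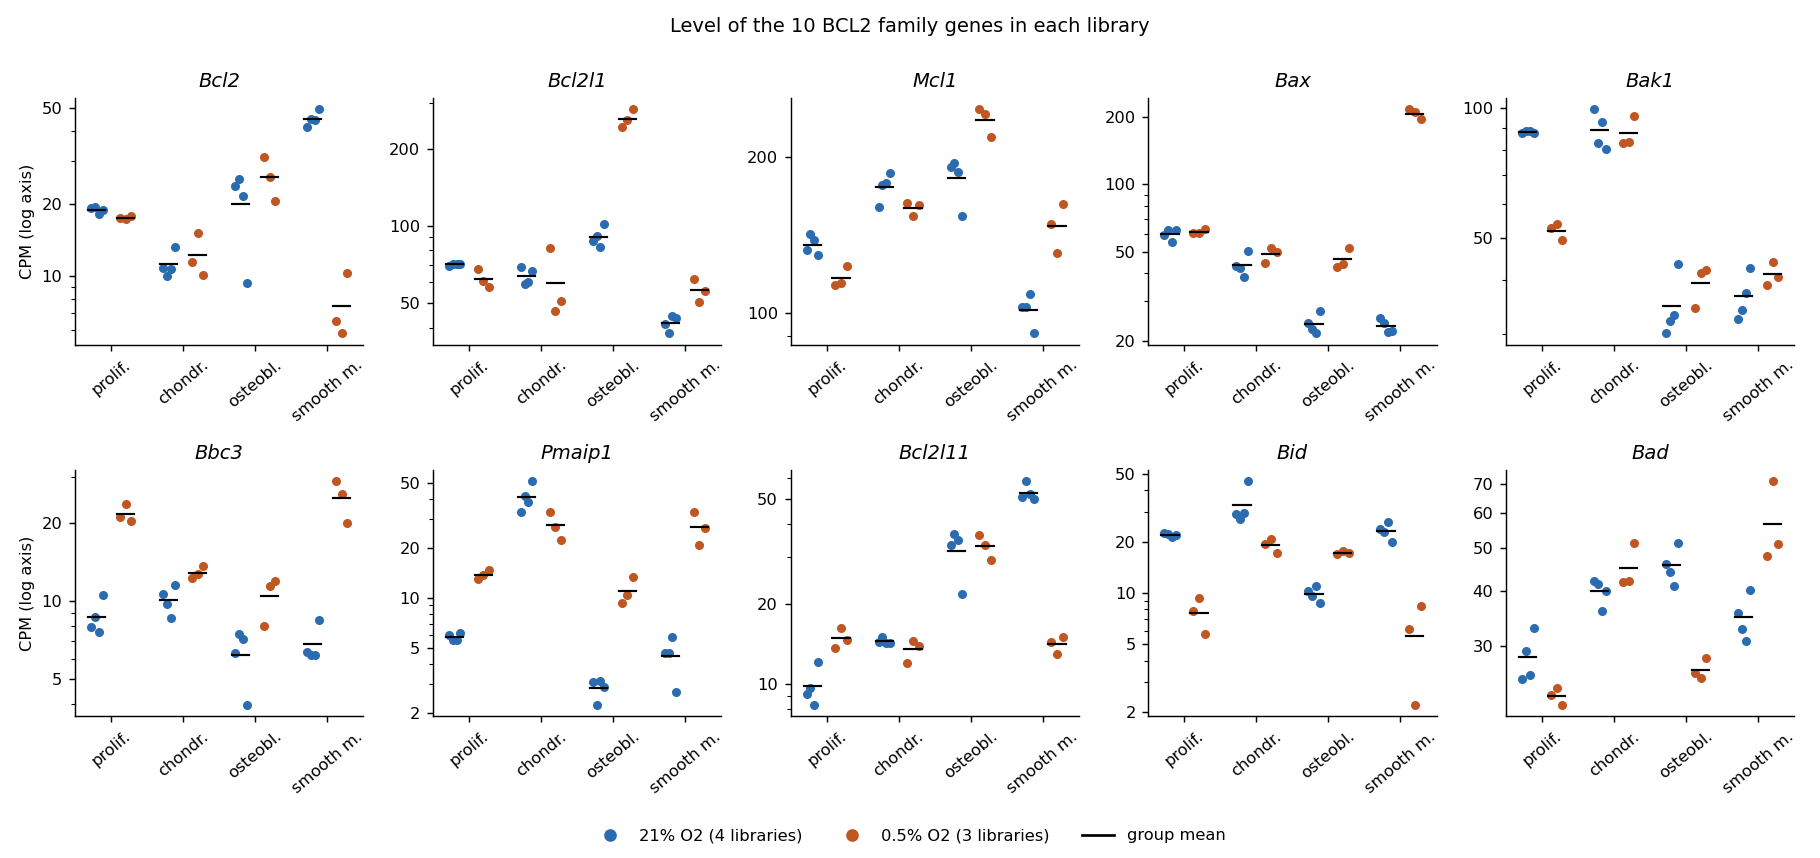
Level of each of the 10 genes in every library (points, CPM scaled by TMM, log axis) with the group mean (bar), for the 4 culture types at 21% O2 (4 libraries each) and 0.5% O2 (3 libraries each). Bax in the libraries labelled hypoxic smooth muscle, at 196 to 217 CPM, lies above every other library, and Bcl2l1 does so in hypoxic osteoblasts, at 243 to 284 CPM.

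Bcl2 (chr1:106538178-106714274 on the minus strand, mm10), the founding guardian of the family, was highest in normoxic smooth muscle and lowest in the libraries labelled hypoxic smooth muscle. The 4 normoxic smooth muscle libraries held 41.6, 44.8, 44.3 and 49.2 CPM, above all other libraries of the series. The 4 normoxic proliferating libraries held 19.2, 19.3, 18.2 and 18.9 CPM. The 3 libraries labelled hypoxic smooth muscle held 6.53, 5.79 and 10.3 CPM. Bcl2 thus rose from proliferating cells to smooth muscle at 21% O2 (log2 fold change 1.30, SE 0.070, edgeR adjusted p = 7.67e-11) and fell at 0.5% O2 (log2 fold change -1.10, SE 0.20, edgeR adjusted p = 0.000456). Between the oxygen levels, smooth muscle Bcl2 fell by 2.52 on the log2 scale (edgeR adjusted p = 3e-09). Chondrocyte cultures held 10.8, 9.99, 10.7 and 13.2 CPM at 21% O2 and 11.4, 15.0 and 10.1 CPM at 0.5% O2, below all proliferating libraries of their own oxygen level. Bcl2 fell there by 0.68 and by 0.53 on the log2 scale (edgeR adjusted p = 4.49e-05 and 0.00363), the hypoxic call being lost with all 28 libraries in one edgeR fit (adjusted p = 0.0576). Normoxic osteoblasts held 23.6, 25.3, 21.5 and 9.39 CPM, where replicate 4 lay well under the other 3. With it the change from proliferating cells was 0.13 (edgeR adjusted p = 0.65), without replicate 4 Bcl2 rose by 0.32 (edgeR adjusted p = 0.00143), and without replicate 2 the value was -0.030. Hypoxic osteoblasts held 31.1, 25.8 and 20.5 CPM, and Bcl2 rose there from hypoxic proliferating cells (log2 fold change 0.56, SE 0.13, edgeR adjusted p = 0.00145). The falls of Bcl2 in smooth muscle, at 0.5% O2 and between oxygen levels, rest on the libraries that went against their label. The oxygen differences elsewhere did not pass the threshold, at -0.058 in proliferating cells, 0.11 in chondrocytes and 0.37 in osteoblasts.

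Bcl2l1 (chr2:152780668-152831728, minus strand), which encodes the guardian BCL-XL and, by splicing, a shorter pro-apoptotic form that gene counts do not separate, was highest in hypoxic osteoblasts. Those 3 libraries held 243, 258 and 284 CPM, while normoxic osteoblasts held 87.2, 91.2, 82.4 and 101 CPM. Every other library of the series lay below the hypoxic osteoblasts. Bcl2l1 rose with low oxygen in osteoblasts (log2 fold change 1.53, SE 0.099, edgeR adjusted p = 3.28e-06), and from proliferating cells to osteoblasts at 0.5% O2 (log2 fold change 2.08, SE 0.083, edgeR adjusted p = 5.71e-12) and at 21% O2 (log2 fold change 0.42, SE 0.072, edgeR adjusted p = 0.000427). The hypoxic change exceeded the normoxic one by 1.70 (interaction, edgeR adjusted p = 1.36e-08). Proliferating cells held 69.4, 70.6, 71.2 and 70.9 CPM at 21% O2 and 67.4, 61.0 and 57.4 CPM at 0.5% O2, with no overlap between them, and a difference of -0.13 that did not pass the threshold (edgeR adjusted p = 0.07). Without hypoxic replicate 1 or normoxic replicate 4 it did pass, at -0.20 and -0.14, as it did by library size alone, at -0.21, and with no filter, at -0.17. From proliferating cells to normoxic chondrocytes the change was -0.073 (edgeR adjusted p = 0.321), and by library size alone it passed, at -0.42. Normoxic smooth muscle was the lowest group, at 41.3, 38.0, 44.2 and 43.7 CPM, where Bcl2l1 fell from proliferating cells (log2 fold change -0.70, SE 0.060, edgeR adjusted p = 2.54e-08). In the libraries labelled hypoxic smooth muscle it stood at 61.9, 50.4 and 55.6 CPM, above all 4 normoxic smooth muscle libraries (log2 fold change 0.49, SE 0.099, edgeR adjusted p = 0.000422), but scaled by library size alone the sign turned, to -0.88. Hypoxic chondrocytes held 81.8, 46.4 and 50.9 CPM, with replicate 1 far above the other 2. The difference from normoxic chondrocytes was -0.10 with it (edgeR adjusted p = 0.758) and -0.39 without it (edgeR adjusted p = 0.0132), and 0.052 without replicate 2. The change from hypoxic proliferating cells to hypoxic chondrocytes was -0.060 with replicate 1 and -0.35 without it (edgeR adjusted p = 0.000465).

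Mcl1 (chr3:95658788-95663176, plus strand), a guardian protein with rapid turnover, rose in both chondrocyte and osteoblast cultures and fell in normoxic smooth muscle. Normoxic proliferating cells held 132, 142, 138 and 129 CPM, normoxic chondrocytes 160, 176, 178 and 186 CPM and normoxic osteoblasts 191, 195, 187 and 154 CPM. Both differentiated groups lay above all proliferating libraries, and overlapped each other. The rise was 0.45 in chondrocytes (edgeR adjusted p = 1.38e-05) and 0.48 in osteoblasts (edgeR adjusted p = 0.000261). At 0.5% O2 hypoxic osteoblasts, at 247, 242 and 219 CPM, were the highest group of the series, 1.01 above hypoxic proliferating cells (edgeR adjusted p = 4.55e-09). Hypoxic chondrocytes, at 163, 154 and 162 CPM, were 0.44 above them (edgeR adjusted p = 1.8e-05). The chondrocyte rises at both oxygen levels lost their call when scaled by library size alone, at 0.096 and 0.11. Mcl1 rose with low oxygen in osteoblasts (log2 fold change 0.38, SE 0.099, edgeR adjusted p = 0.0105) and fell in proliferating cells (log2 fold change -0.16, SE 0.049, edgeR adjusted p = 0.0125), where the hypoxic libraries held 113, 114 and 123 CPM. The osteoblast call was lost by library size alone, at 0.22, and the proliferating call without hypoxic replicate 1 or 2, at -0.14 and -0.14. Smooth muscle held 102, 102, 109 and 91.2 CPM at 21% O2, a fall from proliferating cells (log2 fold change -0.37, SE 0.058, edgeR adjusted p = 2.65e-05), and 149, 130 and 162 CPM in the libraries labelled hypoxic smooth muscle. That oxygen difference was 0.60 (edgeR adjusted p = 2.47e-05) and turned to -0.77 by library size alone.

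Bax (chr7:45461697-45466898, minus strand), an effector that inserts into the mitochondrial membrane and a textbook p53 target, gave the largest oxygen difference of the 10 genes in smooth muscle. Its promoter is shown because, among the genes whose windows were read, it held the one p53 response-element decamer, and because its level moved with oxygen in 2 culture types. The stretch is all 250 bases of the window before the RefSeq start site (chr7:45466899-45467148 of GRCm38.p6, minus strand, written 5′ to 3′); capitals mark the decamer, whose first base is at -201, and a CACGTG at -9.

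Bax: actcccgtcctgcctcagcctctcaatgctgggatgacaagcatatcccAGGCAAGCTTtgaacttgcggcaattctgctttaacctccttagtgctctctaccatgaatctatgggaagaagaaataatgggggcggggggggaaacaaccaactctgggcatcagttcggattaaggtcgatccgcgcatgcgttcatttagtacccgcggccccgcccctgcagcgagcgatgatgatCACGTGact

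CACGTG holds, on both strands, the ACGTG core bound by hypoxia-inducible factors, and is also the E-box of other factors. Windows of 300 bases, 250 before and 50 after each start site, were read for 9 of the 10 genes, all but Pmaip1, 15 windows in all. ACGTG on either strand was found in the Bax window (4 matches: the CACGTG above and another after the start site, each read on both strands) and in 1 of the 3 Bbc3 windows. Of 32851 windows of all genes, 19.6% held ACGTG, 7.15% held CACGTG and 8.36% held the p53 decamer. These are matches of letters only; binding was not measured.

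The 3 libraries labelled hypoxic smooth muscle held 217, 210 and 196 CPM of Bax, while the 4 normoxic smooth muscle libraries held 25.2, 24.0, 21.8 and 22.2 CPM. The groups lay far apart, and no library of any other group exceeded 63.1 CPM. The difference was 9.31-fold (log2 fold change 3.22, SE 0.084, edgeR adjusted p = 6.21e-14), and by library size alone it was 1.85. Both proliferating groups were alike in range, at 59.5, 62.3, 55.3 and 62.5 CPM under 21% O2 and 60.4, 60.8 and 63.1 CPM under 0.5% O2, and their difference of 0.092 did not pass the threshold (edgeR adjusted p = 0.177). From that level Bax fell in all 3 normoxic differentiations. The summed level of 5 proliferation markers was lower in all of them too, at 1143 to 1423 CPM in normoxic proliferating cells, 276 to 465 CPM in chondrocytes, 34.7 to 62.5 CPM in osteoblasts and 258 to 314 CPM in smooth muscle, and their part in the falls of Bax and Bak1 was not tested. Bax reached 24.0, 22.6, 21.6 and 27.0 CPM in osteoblasts (log2 fold change -1.27, SE 0.085, edgeR adjusted p = 4.8e-07). In smooth muscle the fall was of the same order (log2 fold change -1.31, SE 0.068, edgeR adjusted p = 5.84e-11). In chondrocytes, at 43.3, 42.5, 38.7 and 50.6 CPM, it fell by 0.38 (edgeR adjusted p = 0.00131). At 0.5% O2 Bax fell less in osteoblasts, which held 42.7, 44.0 and 52.3 CPM (log2 fold change -0.41, SE 0.087, edgeR adjusted p = 0.000619); the hypoxic change lay 0.91 above the normoxic one (interaction, edgeR adjusted p = 1.91e-05). In hypoxic chondrocytes, at 44.4, 51.8 and 49.9 CPM, the fall was 0.34 (edgeR adjusted p = 0.000988), and the interaction of 0.068 did not pass (edgeR adjusted p = 0.674). Between oxygen levels Bax rose in osteoblasts (log2 fold change 0.96, SE 0.11, edgeR adjusted p = 0.000106), where the hypoxic and normoxic libraries did not overlap, and differed by 0.15 in chondrocytes (edgeR adjusted p = 0.322). The proliferation markers moved with that osteoblast difference: 5 of 5 rose, and their summed level was 213 to 276 CPM in hypoxic osteoblasts. Their part in it was not tested.

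Bak1 (chr17:27019810-27029009, minus strand), the effector that resides on the mitochondrial membrane, fell with low oxygen in proliferating cells, where Bax did not pass the threshold. Normoxic proliferating libraries held 87.5, 88.4, 88.5 and 87.6 CPM, and hypoxic ones held 52.7, 54.0 and 49.5 CPM. The groups were far apart and tight (log2 fold change -0.70, SE 0.052, edgeR adjusted p = 4.66e-08). The summed level of the 5 proliferation markers was also lower there, at 1010 to 1052 CPM in hypoxic against 1143 to 1423 CPM in normoxic cells, and its part in the Bak1 difference was not tested. From proliferating cells at 21% O2 Bak1 fell in osteoblasts, at 30.2, 32.3, 33.3 and 43.6 CPM (log2 fold change -1.28, SE 0.11, edgeR adjusted p = 2.86e-06), and in smooth muscle, at 32.7, 34.1, 37.4 and 42.7 CPM (log2 fold change -1.21, SE 0.074, edgeR adjusted p = 4.15e-10). Normoxic chondrocytes, at 99.1, 83.1, 92.9 and 80.2 CPM, straddled the proliferating level, with a difference of 0.089 (edgeR adjusted p = 0.257) that turned to -0.26 by library size alone and passed the threshold without normoxic chondrocyte replicate 4 (edgeR adjusted p = 0.0493). At 0.5% O2 chondrocytes held 83.0, 83.5 and 95.8 CPM, all above the hypoxic proliferating libraries, so that Bak1 rose there (log2 fold change 0.74, SE 0.074, edgeR adjusted p = 1.14e-06). The interaction was 0.68 (edgeR adjusted p = 3.62e-05). Hypoxic osteoblasts held 34.5, 41.5 and 42.4 CPM, a fall of 0.40 (edgeR adjusted p = 0.00117), and overlapped the normoxic osteoblasts. The oxygen difference in osteoblasts, 0.18, missed the threshold (edgeR adjusted p = 0.308), and passed it without normoxic osteoblast replicate 4, at 0.31. Smooth muscle libraries overlapped between oxygen levels, with 39.1, 44.2 and 40.7 CPM at 0.5% O2 and a difference of 0.23 (edgeR adjusted p = 0.0751); without normoxic smooth muscle replicate 4 it passed, at 0.30, as it did with size factors and with DESeq2, both at 0.27, and by library size alone it was -1.14.

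The balance of effector to guardian was read as a ratio of raw counts within each library, which no scaling between libraries can change, and is a description without a test. Counts are not divided by exon length (Bax 1576 bases, Bcl2 9157, Bcl2l1 4586, Bak1 2407, Mcl1 3418), so a ratio can be compared between groups but does not rank the genes' levels. The Bax to Bcl2 ratio was 3.17 ± 0.120 (SD, n = 4) in normoxic and 3.52 ± 0.0516 (SD, n = 3) in hypoxic proliferating cells. It was 0.521 ± 0.0658 in normoxic smooth muscle, the one group with ratios under 1 in all libraries; per length, Bax stood at 14.8 ± 0.999 RPKM and Bcl2 at 4.91 ± 0.346 RPKM there. In the libraries labelled hypoxic smooth muscle it was 29.5 ± 9.17, with single libraries from 19.1 to 36.3. These libraries carry a trend with exon length: between oxygen levels in smooth muscle, genes of the length class of Bax had a median log2 change of 0.59 and those of the class of Bcl2 one of -0.59, and the part of this trend in the ratio was not tested. Osteoblasts lay lower than proliferating cells at both oxygen levels, at 1.45 ± 0.956 and 1.87 ± 0.608; the wide normoxic spread came from replicate 4, the library with low Bcl2, at 2.88. Chondrocytes lay between 3.44 and 4.94 in all 7 libraries. Against Bcl2l1, Bax stood at 0.849 ± 0.0498 in normoxic and 0.997 ± 0.101 in hypoxic proliferating cells. The ratio was lowest in osteoblasts, 0.263 ± 0.0114 at 21% O2 and 0.177 ± 0.00673 at 0.5% O2, with no overlap between them, although Bax itself had risen in the hypoxic osteoblasts. The libraries labelled hypoxic smooth muscle stood at 3.73 ± 0.377, against 0.561 ± 0.0699 in normoxic smooth muscle. Bak1 to Mcl1 moved the other way with oxygen in proliferating cells, from 0.651 ± 0.0249 at 21% O2 to 0.447 ± 0.0392 at 0.5% O2. It was lowest in osteoblasts, at 0.196 ± 0.0587 and 0.168 ± 0.0271, and overlapped between oxygen levels in smooth muscle, at 0.366 ± 0.0687 and 0.284 ± 0.0478.

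**Figure D2:**
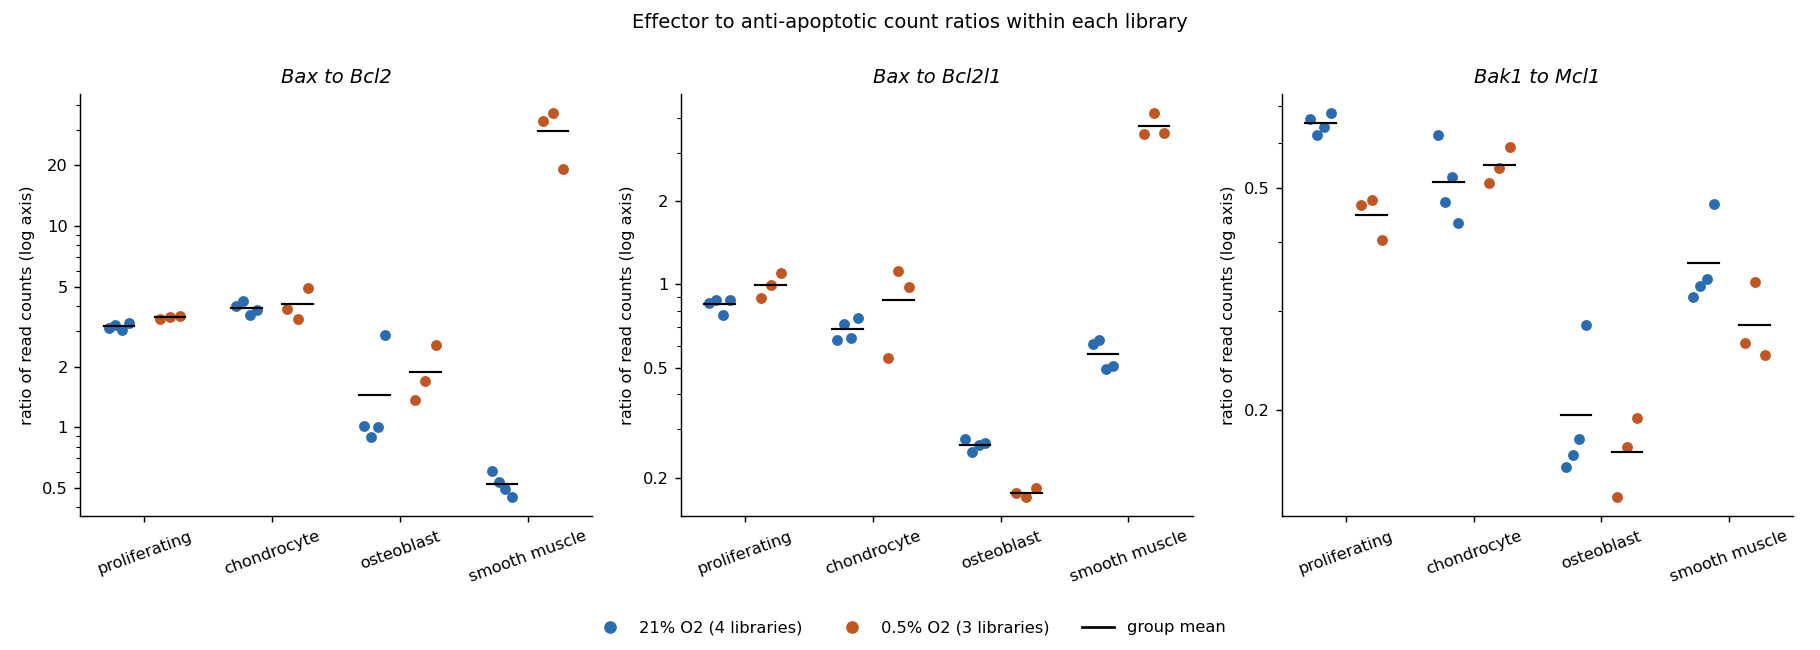
Ratio of raw counts within each library (points, log axis) with the group mean (bar) for Bax to Bcl2, Bax to Bcl2l1 and Bak1 to Mcl1, over the 8 groups. For Bax to Bcl2 the libraries labelled hypoxic smooth muscle lie at 19.1 to 36.3, above all others, while normoxic smooth muscle lies at 0.451 to 0.605. The counts are not divided by exon length, and the libraries labelled hypoxic smooth muscle carry a trend with length.

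Bbc3 (chr7:16308393-16318205, plus strand) encodes the BH3-only protein PUMA, a p53 target that binds all the guardians. It was higher at 0.5% O2 than at 21% O2 in every culture type by its mean. The promoter stretch with its ACGTG match is shown for comparison with that of Bax: 30 bases of the window of the third start site (chr7:16310355-16310384 of GRCm38.p6, plus strand), with CACGTG in capitals at -64.

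Bbc3: gcggggcgggcgCACGTGgcggcgtcgagg

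Hypoxic proliferating cells held 21.2, 23.6 and 20.4 CPM of Bbc3, all above the 7.91, 8.66, 7.59 and 10.6 CPM of normoxic proliferating cells (log2 fold change 1.38, SE 0.12, edgeR adjusted p = 1.62e-07). The libraries labelled hypoxic smooth muscle held 29.0, 25.9 and 19.9 CPM, all above the 6.37, 6.20, 6.21 and 8.46 CPM of normoxic smooth muscle (log2 fold change 1.94, SE 0.17, edgeR adjusted p = 6.33e-08); this comparison also rose by library size alone, by 0.57. Osteoblasts held 6.29, 7.49, 7.12 and 3.97 CPM at 21% O2 and 8.01, 11.4 and 12.0 CPM at 0.5% O2, a rise (log2 fold change 0.76, SE 0.23, edgeR adjusted p = 0.0196) that lost its call without hypoxic replicate 2 (edgeR adjusted p = 0.0729) or replicate 3 (edgeR adjusted p = 0.0851). In chondrocytes the difference of 0.34 missed the threshold (edgeR adjusted p = 0.0843), with 10.6, 9.71, 8.57 and 11.6 CPM at 21% O2 and 12.2, 12.7 and 13.7 CPM at 0.5% O2. The libraries did not overlap, and without normoxic replicate 4 the difference passed, at 0.41. At 0.5% O2 Bbc3 fell from proliferating cells to chondrocytes (log2 fold change -0.76, SE 0.10, edgeR adjusted p = 2.21e-05) and to osteoblasts (log2 fold change -1.05, SE 0.14, edgeR adjusted p = 8.07e-06). For chondrocytes the change differed between oxygen levels by -1.03 (edgeR adjusted p = 0.000129); for osteoblasts the difference of -0.58 did not pass (edgeR adjusted p = 0.0757), and did without normoxic osteoblast replicate 4, at -0.74, without normoxic proliferating replicate 4, at -0.69, and by library size alone, at -0.70. The 3 normoxic changes, from -0.43 in osteoblasts to 0.30 in chondrocytes, missed the threshold by edgeR, and each passed under other settings. With limma-voom and DESeq2 the chondrocyte change was called (adjusted p = 0.0444 and 0.0436), as was the osteoblast change (adjusted p = 0.0478 and 0.0366), the latter also by library size alone (edgeR adjusted p = 0.0207) and in one edgeR fit of all 28 libraries (adjusted p = 0.011). With no filter the smooth muscle change was called (edgeR adjusted p = 0.0481). By edgeR the chondrocyte value passed without normoxic proliferating replicate 4, at 0.40, or chondrocyte replicate 3, at 0.38, the osteoblast value without osteoblast replicate 2, at -0.55, and the smooth muscle value of -0.30 without proliferating replicate 3, at -0.37, or smooth muscle replicate 4, at -0.42.

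Pmaip1 encodes NOXA, a BH3-only protein that binds MCL1 and is induced by p53 and by hypoxia-inducible factor in other cells. It was the gene with the widest range, and chondrocytes stood out. Normoxic chondrocytes held 33.2, 41.2, 37.9 and 51.0 CPM, far above the 5.95, 5.53, 5.57 and 6.13 CPM of normoxic proliferating cells (log2 fold change 2.90, SE 0.13, edgeR adjusted p = 1.39e-09). Hypoxic chondrocytes held 33.2, 26.8 and 22.5 CPM, above the 12.9, 13.7 and 14.8 CPM of hypoxic proliferating cells (log2 fold change 0.99, SE 0.13, edgeR adjusted p = 2.1e-05). The hypoxic rise was smaller by 1.88 on the log2 scale (interaction -1.88, edgeR adjusted p = 7.51e-07), the proliferating level itself being higher at 0.5% O2. That oxygen difference in proliferating cells was a rise (log2 fold change 1.31, SE 0.11, edgeR adjusted p = 1.09e-07), with both groups tight and apart. Osteoblasts, the lowest normoxic group at 3.11, 2.25, 3.15 and 2.88 CPM, held 9.29, 10.4 and 13.4 CPM at 0.5% O2, a rise (log2 fold change 1.95, SE 0.18, edgeR adjusted p = 2.84e-05) of 3.87-fold. Smooth muscle held 4.63, 4.67, 5.83 and 2.71 CPM at 21% O2, and the libraries labelled hypoxic smooth muscle held 33.1, 21.0 and 26.6 CPM (log2 fold change 2.66, SE 0.22, edgeR adjusted p = 4.03e-08); by library size alone the rise was 1.29. Chondrocytes went the other way: Pmaip1 fell with low oxygen by 0.58 (edgeR adjusted p = 0.0316), with overlapping libraries. The call was lost without any one of normoxic replicates 2 and 3 and hypoxic replicates 2 and 3, with edgeR adjusted p = 0.0508 to 0.11, and with no filter (edgeR adjusted p = 0.0722). From proliferating cells Pmaip1 fell in normoxic osteoblasts (log2 fold change -0.97, SE 0.14, edgeR adjusted p = 0.000144). In normoxic smooth muscle the change of -0.32 did not pass, and did without normoxic smooth muscle replicate 3, at -0.48 (edgeR adjusted p = 0.0332). In hypoxic osteoblasts the change was -0.32 (edgeR adjusted p = 0.0508), past the threshold by library size alone, at -0.55, with no filter (adjusted p = 0.0386), with limma-voom (adjusted p = 0.0417) and without hypoxic osteoblast replicate 3, at -0.48.

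Bcl2l11 (chr2:128126038-128162547, plus strand) encodes BIM, a BH3-only protein induced by FOXO factors on growth factor withdrawal. It rose in normoxic smooth muscle, normoxic chondrocytes and both osteoblast groups. Normoxic smooth muscle held 50.6, 58.3, 52.0 and 49.8 CPM, against 9.12, 9.65, 8.32 and 12.1 CPM in normoxic proliferating cells (log2 fold change 2.48, SE 0.10, edgeR adjusted p = 3.94e-12). The libraries labelled hypoxic smooth muscle held 14.3, 13.0 and 15.0 CPM, well under normoxic smooth muscle (log2 fold change -1.84, SE 0.11, edgeR adjusted p = 1.09e-09) and overlapping hypoxic proliferating cells, at 13.7, 16.3 and 14.7 CPM. Osteoblasts held 33.5, 36.7, 35.0 and 21.8 CPM at 21% O2 and 36.6, 33.3 and 29.3 CPM at 0.5% O2. Both rose from proliferating cells of their oxygen level, by 1.75 (edgeR adjusted p = 1.01e-05) and 1.15 (edgeR adjusted p = 2.34e-07). The oxygen levels overlapped, with a difference of 0.059 (edgeR adjusted p = 0.789) that turned sign without normoxic replicate 4, at -0.086, without hypoxic replicate 1, at -0.015, and by library size alone, at -0.093. Chondrocytes held 14.4, 15.1, 14.2 and 14.3 CPM at 21% O2, a rise from proliferating cells (log2 fold change 0.64, SE 0.12, edgeR adjusted p = 0.000348). At 0.5% O2 they held 12.0, 14.6 and 13.9 CPM, and the change of -0.15 did not pass (edgeR adjusted p = 0.282) but did by library size alone, at -0.48. Low oxygen went with a rise in proliferating cells (log2 fold change 0.66, SE 0.13, edgeR adjusted p = 0.000422), where every hypoxic library lay above every normoxic one. Bcl2l11 and Bcl2 shared their highest group, normoxic smooth muscle, and over all 28 libraries their log2 CPM had a Pearson r of 0.73, and 0.76 over the 25 without the libraries labelled hypoxic smooth muscle. The points are libraries of 8 groups scaled together, so this is a description.

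Bid (chr6:120891930-120916853, minus strand), the BH3-only protein that caspase-8 cleaves to link death receptors to mitochondria, fell with low oxygen in proliferating cells and rose in osteoblasts. Proliferating cells held 22.5, 22.3, 21.2 and 21.7 CPM at 21% O2 and 7.80, 9.31 and 5.72 CPM at 0.5% O2 (log2 fold change -1.47, SE 0.13, edgeR adjusted p = 3.08e-07). Osteoblasts held 10.2, 9.54, 11.0 and 8.75 CPM at 21% O2 and 17.0, 17.6 and 17.1 CPM at 0.5% O2 (log2 fold change 0.80, SE 0.11, edgeR adjusted p = 0.000278). In both culture types the oxygen levels did not overlap, and the hypoxic proliferating libraries spread the most, with a mean of 7.61 ± 1.80 CPM (SD, n = 3). From proliferating cells to osteoblasts Bid therefore fell at 21% O2 (log2 fold change -1.10, SE 0.086, edgeR adjusted p = 1.44e-06) and rose at 0.5% O2 (log2 fold change 1.17, SE 0.15, edgeR adjusted p = 5.66e-06), an interaction of 2.31 (edgeR adjusted p = 5.93e-08). Chondrocytes held 29.2, 27.0, 29.6 and 45.4 CPM at 21% O2, with replicate 4 above the other 3, and 19.4, 20.7 and 17.3 CPM at 0.5% O2. The oxygen difference was a fall of 0.79 (edgeR adjusted p = 0.0107), which lost its call without hypoxic replicate 3, at -0.72 (edgeR adjusted p = 0.0563). Bid rose from proliferating cells to chondrocytes at both oxygen levels, by 0.66 (edgeR adjusted p = 0.00157) and 1.32 (edgeR adjusted p = 9.07e-06); the normoxic call was lost by library size alone, at 0.31. Normoxic smooth muscle held 23.7, 22.9, 26.0 and 19.9 CPM, overlapping proliferating cells. The difference of 0.13 did not pass, and did without normoxic smooth muscle replicate 4, at 0.19 (edgeR adjusted p = 0.0268). The libraries labelled hypoxic smooth muscle held 6.15, 2.19 and 8.34 CPM, the lowest group, with replicate 2 under the other 2 (log2 fold change -1.98, SE 0.27, edgeR adjusted p = 1.01e-05). The exons of Bid overlap those of Bcl2l13 on the opposite strand over 17.7% of their length, and Bcl2l13 drew 213% of the counts of Bid. Whether the counting used strand is not given in the sources used here, so reads of the overlap may have been lost or shared, and the Bid values are uncertain to that extent. Bcl2l13 fell from proliferating cells to osteoblasts at 21% O2 (-0.94, edgeR adjusted p = 3.16e-07) together with Bid.

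Bad (chr19:6941861-6951899, plus strand), the BH3-only protein that survival kinases hold inactive by phosphorylation, had the narrowest range of the 10 genes over the 7 groups without the libraries labelled hypoxic smooth muscle. It rose in all 3 normoxic differentiations, from 25.3, 29.2, 25.8 and 33.0 CPM in proliferating cells to 46.2, 44.3, 41.0 and 51.5 CPM in osteoblasts (log2 fold change 0.75, SE 0.11, edgeR adjusted p = 0.000117). The chondrocyte rise was 0.57 (edgeR adjusted p = 0.000138), lost by library size alone at 0.22, and the smooth muscle rise was 0.35 (edgeR adjusted p = 0.0038), with 1 proliferating library inside the smooth muscle range. At 0.5% O2 Bad rose from 23.2, 24.2 and 22.1 CPM in proliferating cells to 41.9, 42.3 and 51.5 CPM in chondrocytes (log2 fold change 0.96, SE 0.096, edgeR adjusted p = 1.16e-06). Hypoxic osteoblasts held 26.1, 25.5 and 28.2 CPM, all below the normoxic osteoblasts: Bad fell with low oxygen there (log2 fold change -0.78, SE 0.10, edgeR adjusted p = 0.000192), where Bax, Bid, Bbc3 and Pmaip1 rose. The libraries labelled hypoxic smooth muscle held 48.2, 71.0 and 51.1 CPM, above normoxic smooth muscle at 35.7, 32.9, 30.9 and 40.2 CPM (log2 fold change 0.76, SE 0.14, edgeR adjusted p = 0.000121), but the value by library size alone was -0.61. In proliferating cells the fall of 0.23 (edgeR adjusted p = 0.0441) lay near the threshold and lost its call without normoxic replicate 2 or any 1 of the 3 hypoxic libraries, with edgeR adjusted p = 0.0594 to 0.147, and with limma-voom (adjusted p = 0.0501). Bad shares 20.5% of its exon length with Gpr137 on the opposite strand, which drew 63.8% of the counts of Bad, so the same limit on strand holds. Bak1 shares 18.2% with Ggnbp1, which drew 4.04% of its counts.

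Counted over the set, differentiation at 21% O2 moved anti- and pro-apoptotic genes in both directions. From proliferating cells to chondrocytes 7 of the 10 genes passed the threshold, 5 higher (Bad, Bcl2l11, Bid, Mcl1, Pmaip1) and 2 lower (Bax, Bcl2), where 74.9% of all genes tested were called (37.7% higher, 37.2% lower). To osteoblasts 8 passed, 4 higher (Bad, Bcl2l1, Bcl2l11, Mcl1) and 4 lower (Bak1, Bax, Bid, Pmaip1), where 78.7% of all genes tested were called (40.9% higher, 37.8% lower). To smooth muscle 7 passed, 3 higher (Bad, Bcl2, Bcl2l11) and 4 lower (Bak1, Bax, Bcl2l1, Mcl1), where 79.7% of all genes tested were called (40.8% higher, 38.9% lower). Scaled by library size alone, the splits were 2 higher and 4 lower in chondrocytes, 4 higher and 5 lower in osteoblasts and 4 higher and 4 lower in smooth muscle. The counts are close to those background shares, so being called says nothing particular of these genes. The 3 comparisons share their normoxic proliferating libraries. The median change of the 10 genes was 0.37, -0.15 and -0.31 in chondrocytes, osteoblasts and smooth muscle, beside -0.0029, 0.066 and 0.028 over all genes tested. In the osteoblast and smooth muscle cultures both effectors, Bax and Bak1, fell by more than 1 on the log2 scale while the BH3-only Bcl2l11 rose by more than 1. Without normoxic osteoblast replicate 4, which stood apart, 9 of the 10 genes were called in osteoblasts, 5 higher and 4 lower.

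At 0.5% O2, 8 of the 10 genes passed from proliferating cells to chondrocytes, 5 higher (Bad, Bak1, Bid, Mcl1, Pmaip1) and 3 lower (Bax, Bbc3, Bcl2), where 69.5% of all genes tested were called (34.9% higher, 34.6% lower). To osteoblasts 8 passed, 5 higher (Bcl2, Bcl2l1, Bcl2l11, Bid, Mcl1) and 3 lower (Bak1, Bax, Bbc3), where 71.3% of all genes tested were called (36.2% higher, 35.1% lower). All 3 guardians rose in the hypoxic osteoblasts and both effectors fell. To the libraries labelled hypoxic smooth muscle 5 passed, 4 higher (Bad, Bax, Mcl1, Pmaip1) and 1 lower (Bcl2), where 70.0% of all genes tested were called (33.8% higher, 36.2% lower). Bax rose there (log2 fold change 1.88, SE 0.079, edgeR adjusted p = 2.64e-09), where it fell in the 5 other differentiations. By library size alone 8 passed in this comparison, 1 higher and 7 lower, with Bax at 0.60, Mcl1 at -0.82, Pmaip1 at -0.19 and Bad at 0.13. That scaling gave 4 higher and 4 lower in chondrocytes and 5 higher and 4 lower in osteoblasts. These 3 comparisons share their hypoxic proliferating libraries. The median change of the 10 genes was 0.19, 0.38 and 0.19, beside -0.021, 0.0010 and -0.073 over all genes.

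**Figure D3:**
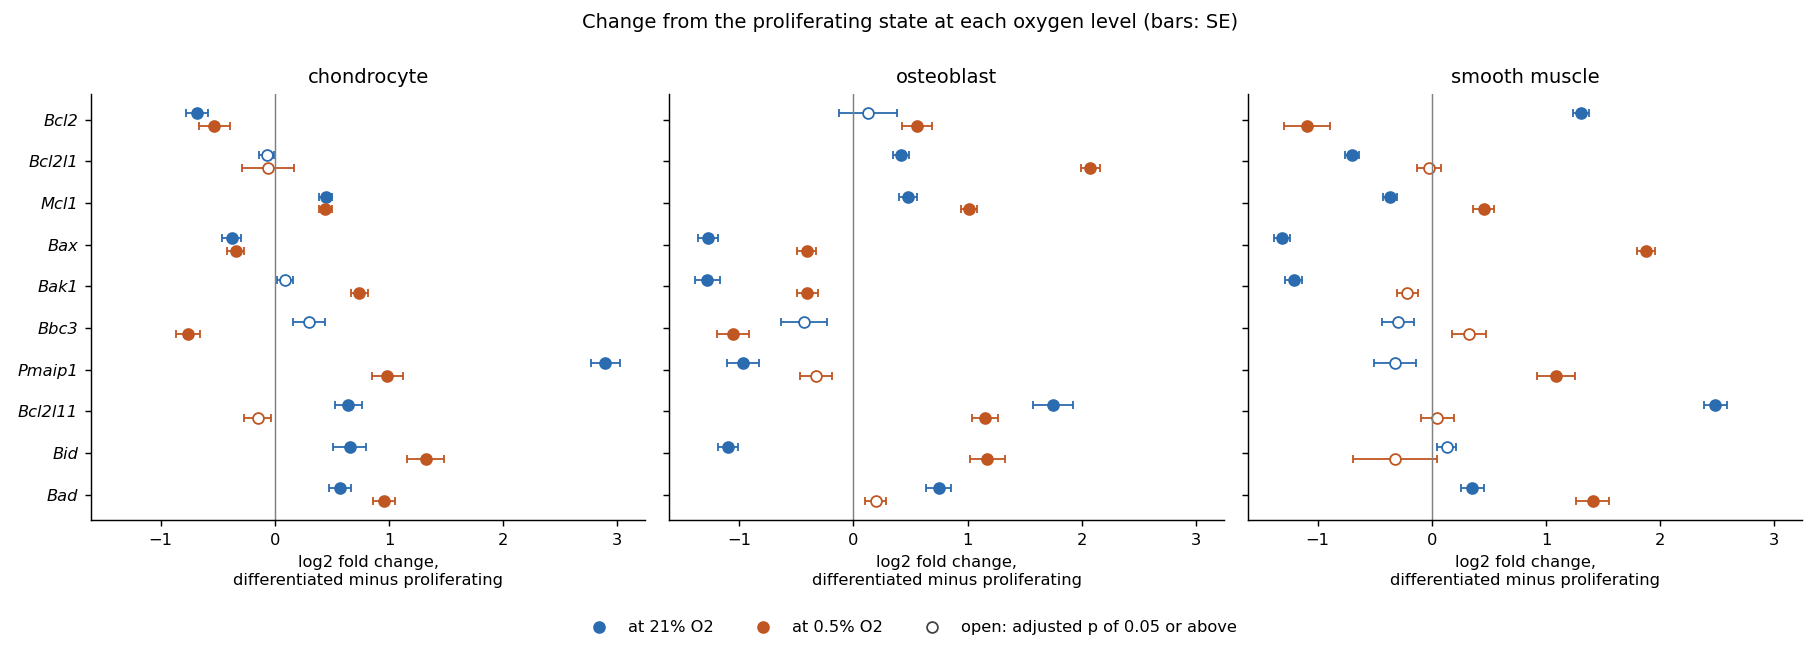
Log2 fold change from proliferating cells (edgeR, TMM scaling) with its standard error for each of the 10 genes in each differentiation, at 21% O2 and at 0.5% O2. In smooth muscle the points of the oxygen levels lie furthest apart for Bax (-1.31 and 1.88), Bcl2 (1.30 and -1.10) and Bcl2l11 (2.48 and 0.05); by library size alone the hypoxic values of Mcl1, Bbc3, Pmaip1 and Bcl2l11 there turn sign.

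Between oxygen levels, proliferating cells showed 3 BH3-only genes higher and the other BH3-only genes, Bid and Bad, lower. 7 of the 10 genes passed, 3 higher (Bbc3, Bcl2l11, Pmaip1) and 4 lower (Bad, Bak1, Bid, Mcl1), where 65.4% of all genes tested were called (33.1% higher, 32.3% lower). In osteoblasts 7 passed, 6 higher (Bax, Bbc3, Bcl2l1, Bid, Mcl1, Pmaip1) and 1 lower (Bad), where 54.3% of all genes tested were called (27.0% higher, 27.3% lower). Without normoxic osteoblast replicate 4, 8 passed there, 7 higher and 1 lower. In chondrocytes 2 passed, both lower (Bid, Pmaip1), where 22.2% of all genes tested were called (10.4% higher, 11.8% lower). In smooth muscle 9 passed, 6 higher (Bad, Bax, Bbc3, Bcl2l1, Mcl1, Pmaip1) and 3 lower (Bcl2, Bcl2l11, Bid), where 75.6% of all genes tested were called (35.4% higher, 40.2% lower); 3 of the 6 higher ones, Bad, Bcl2l1 and Mcl1, turned sign by library size alone. That scaling took the share of all called genes in smooth muscle that were higher from 46.8% to 15.6%. The splits by library size alone were 3 higher and 5 lower in proliferating cells, 0 higher and 3 lower in chondrocytes, 5 higher and 1 lower in osteoblasts and 3 higher and 7 lower in smooth muscle. The median size of the change, without its sign, was 1.89 for the 10 genes in smooth muscle beside 1.05 over all genes, 0.77 beside 0.50 in osteoblasts, 0.45 beside 0.46 in proliferating cells and 0.14 beside 0.20 in chondrocytes. Pmaip1 and Bbc3, both p53 targets, were called higher at 0.5% O2 in proliferating cells, osteoblasts and smooth muscle, and Bax in osteoblasts and smooth muscle. In chondrocytes Pmaip1 was called lower, and Bbc3 and Bax did not pass. Bax did not pass in proliferating cells either, and the Bbc3 call in osteoblasts was lost without hypoxic replicate 2 or 3. The smooth muscle calls use the libraries that went against their label.

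**Figure D4:**
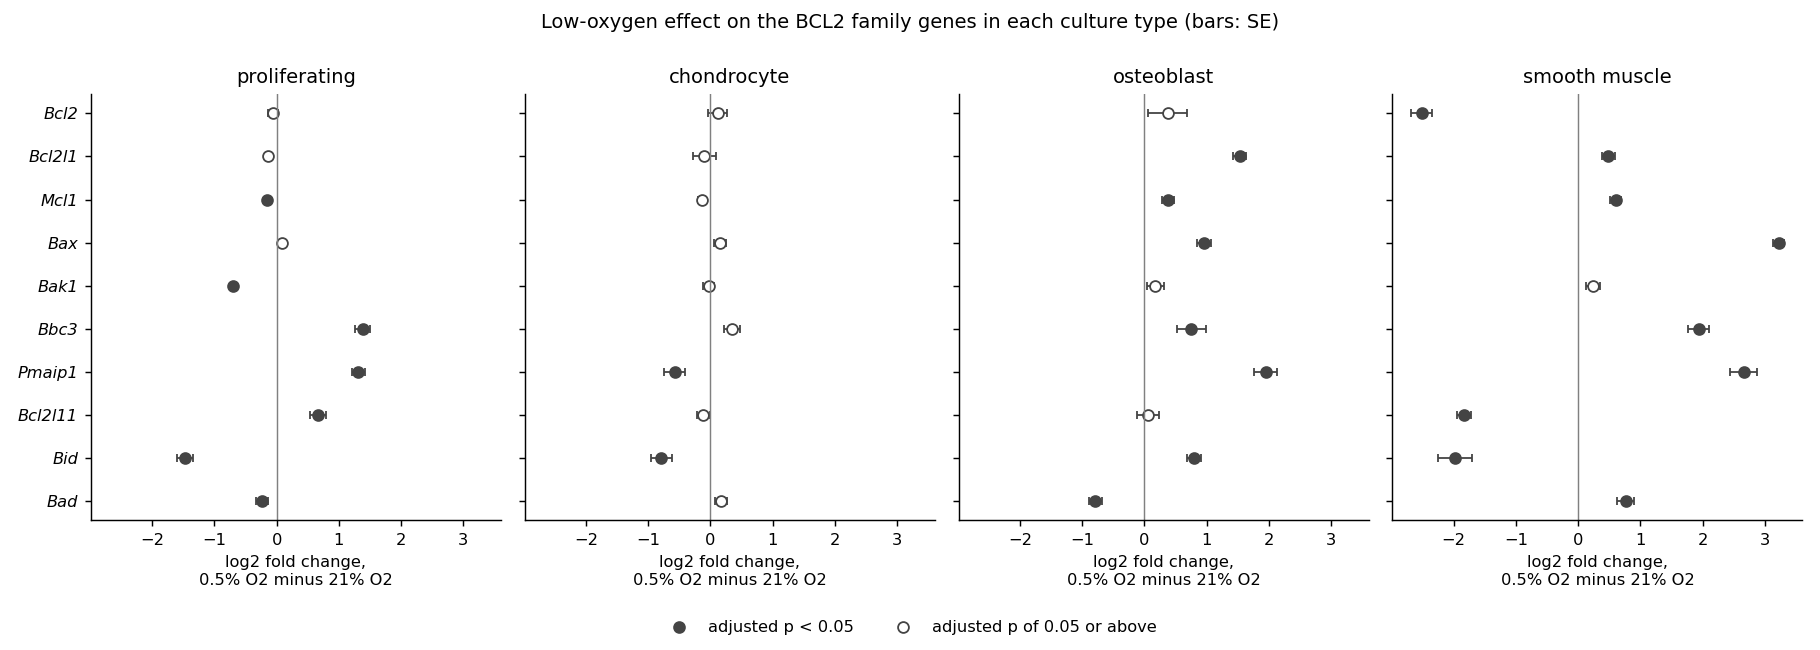
Log2 fold change of 0.5% O2 against 21% O2 (edgeR, TMM scaling) with its standard error for each of the 10 genes in each culture type. Pmaip1 lies at 1.31 or higher in proliferating cells, osteoblasts and smooth muscle and at -0.58 in chondrocytes, and Bax in smooth muscle lies highest at 3.22; by library size alone the smooth muscle values of Bcl2l1, Mcl1, Bak1 and Bad turn sign.

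The change of a differentiation at 0.5% O2 was set against that at 21% O2 by an interaction term over 4 groups. For chondrocytes 6 of the 10 genes passed (3 higher, 3 lower), where 43.5% of all genes tested were called (21.6% higher, 21.9% lower). For osteoblasts 8 passed (6 higher, 2 lower), where 54.2% of all genes tested were called (28.9% higher, 25.3% lower). For smooth muscle 9 passed (7 higher, 2 lower), where 70.4% of all genes tested were called (34.9% higher, 35.5% lower). Bax in smooth muscle gave the largest interaction of the 30 (log2 fold change 3.17, SE 0.10, edgeR adjusted p = 3.22e-17). Bcl2l11 and Bcl2 in smooth muscle followed on the lower side, at -2.46 (edgeR adjusted p = 1.81e-11) and -2.42 (edgeR adjusted p = 6.39e-11). Bid in osteoblasts was at 2.31 and Pmaip1 in chondrocytes at -1.88. Bak1 passed in all 3, at 0.68, 0.92 and 0.97, in each case from its lower level in hypoxic proliferating cells; by library size alone the smooth muscle value was -0.36. With library size alone as the scale the splits were 3 higher and 3 lower for chondrocytes, 6 higher and 3 lower for osteoblasts and 1 higher and 7 lower for smooth muscle. All 3 interactions share the proliferating libraries.

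In smooth muscle the oxygen difference moved with exon length over all genes tested. The median log2 fold change fell step by step from 1.60 in the shortest of 10 equal length classes to -0.78 in the longest, and in the other 3 culture types the class medians lay between -0.12 and 0.14. The part of this trend in the values of single genes was not tested. Bax, with 1576 bases of exon, lies in the second shortest class, whose median was 0.59, and stood 2.63 above it, higher than 89.1% of the genes there. Pmaip1 (2732 bases) stood 2.58 above its class median and Bbc3 (2124 bases) 1.70 above. Bcl2 (9157 bases) and Bcl2l11 (8029 bases) lie in the second longest class, whose median was -0.59, and stood at -1.92 and -1.24 from it; 8.99% and 15.4% of the genes there were lower. Bid (3550 bases) stood at -1.87 from its class median. Bcl2l1, Mcl1 and Bad stood 0.75, 0.71 and 0.52 above the medians of theirs, and Bak1 at -0.01 from it. The same trend ran through the other comparisons with the libraries labelled hypoxic smooth muscle, from 1.58 to -0.72 against hypoxic proliferating cells and from 1.52 to -0.84 in the smooth muscle interaction. Against hypoxic proliferating cells Bcl2 stood at -0.56 from its class median of -0.54, with 25.2% of the class lower, Bax stood 1.26 above its class median of 0.62, Pmaip1 0.95 above 0.13, and Bad 1.14 above 0.27. In the interaction Bax stood 2.43 above its class median, Bcl2 at -1.84 from its own and Bcl2l11 at -1.87.

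**Figure D5:**
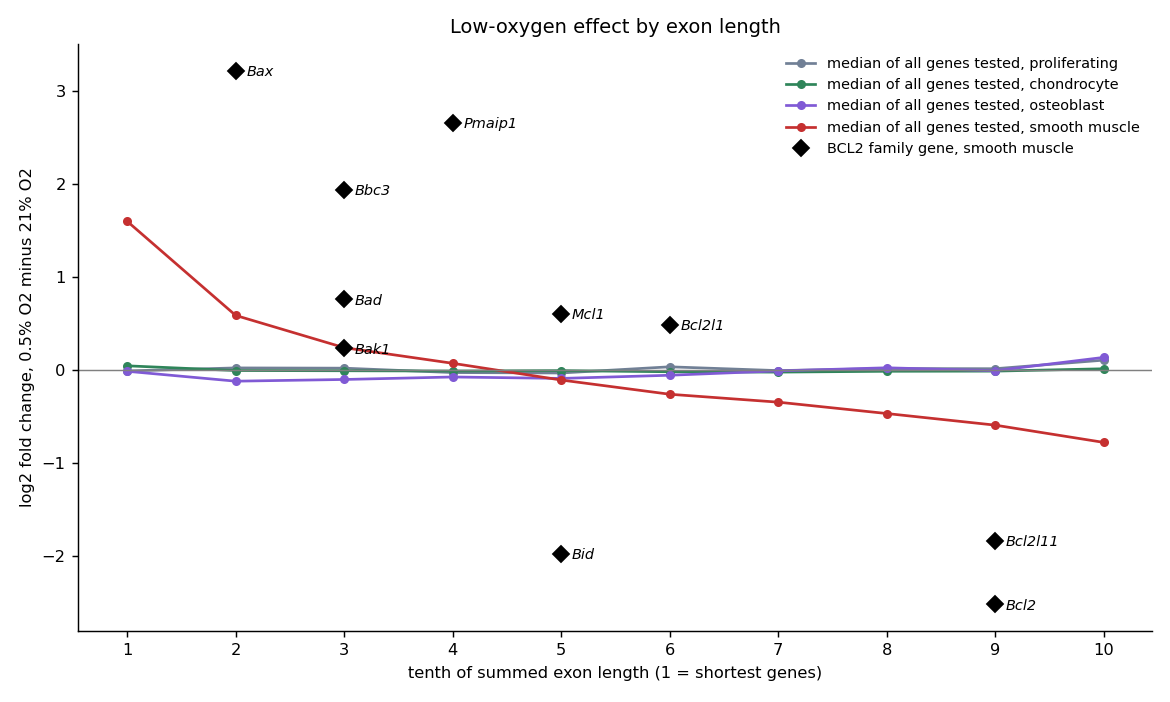
Median log2 fold change of 0.5% O2 against 21% O2 over all genes tested, by class of exon length (10 equal classes) (lines, 1 for each culture type), with the 10 genes in smooth muscle as labelled points at their own class. The smooth muscle line falls from 1.60 to -0.78 while the others stay near 0, and Bax, Pmaip1 and Bbc3 lie above it and Bcl2, Bcl2l11 and Bid below.

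The genes around the 10 members were read from 5 lists. Of 18 genes of the p53 network, 5 rose and 13 fell from proliferating cells to smooth muscle at 21% O2, where 79.7% of all genes tested were called (40.8% higher, 38.9% lower). To osteoblasts 6 rose and 11 fell, where 78.7% of all genes tested were called (40.9% higher, 37.8% lower), and to chondrocytes 8 rose and 8 fell, where 74.9% of all genes tested were called (37.7% higher, 37.2% lower). The medians were -1.09, -0.51 and -0.10, beside 0.028, 0.066 and -0.0029 over all genes. At 0.5% O2 5 rose and 4 fell to smooth muscle (70.0% of all genes called), 7 and 7 to osteoblasts (71.3%) and 7 and 8 to chondrocytes (69.5%). By library size alone, a scaling of the lists added after the data were seen, these counts were 0 higher and 16 lower in smooth muscle, 5 higher and 9 lower in osteoblasts and 5 higher and 10 lower in chondrocytes, with the median of all genes at -1.35, -0.23 and -0.35. Between oxygen levels 10 rose and 2 fell in osteoblasts (median 0.60, beside -0.032 over all genes, 54.3% of which were called), 11 rose and 7 fell in smooth muscle (median 1.01, beside -0.12, 75.6% called), 9 rose and 7 fell in proliferating cells (median 0.10, 65.4% called) and 2 rose and 1 fell in chondrocytes (22.2% called). By library size alone the list in smooth muscle had 6 higher and 8 lower with a median of -0.36, beside -1.49 over all genes. Cdkn1a, the p53 target that arrests the cell cycle, rose at 0.5% O2 by 1.18 in proliferating cells, 0.55 in chondrocytes, 2.29 in osteoblasts and 3.64 in smooth muscle (edgeR adjusted p = 0.000616 or lower). Tigar, which diverts glycolytic flux, fell by 2.55 in proliferating cells, 2.39 in osteoblasts and 2.06 in smooth muscle. Of 7 tested stress factors upstream of the family, 6 rose with low oxygen in proliferating cells and 0 fell, where 65.4% of all genes tested were called (33.1% higher, 32.3% lower). In osteoblasts 4 rose and 2 fell (54.3% of all genes called), in smooth muscle 3 and 2 (75.6%), and in chondrocytes 1 and 0 (22.2%). The smooth muscle median was 0.20, and -1.18 by library size alone. Foxo3, a forkhead transcription factor, rose in proliferating cells by 1.55 and fell in smooth muscle by 0.87; its differences of 0.28 in chondrocytes and 0.47 in osteoblasts did not pass. In the libraries labelled hypoxic smooth muscle Atf4, the factor of the integrated stress response, stood at 1276 ± 90.6 CPM against 140 ± 7.50 CPM in normoxic smooth muscle (3.25, edgeR adjusted p = 2.4e-14), and Atf3 rose by 3.79 there and by 3.66 in osteoblasts.

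Of 15 other BCL2 family genes, 7 or 8 passed the filter on low counts. With low oxygen 4 rose and 3 fell in proliferating cells (65.4% of all genes called), 2 rose and 1 fell in chondrocytes (22.2%), 4 rose and 3 fell in osteoblasts (54.3%) and 3 rose and 3 fell in smooth muscle (75.6%). From proliferating cells at 21% O2 4 rose and 1 fell to chondrocytes (74.9%), 3 rose and 3 fell to osteoblasts (78.7%) and 3 rose and 2 fell to smooth muscle (79.7%). The oxygen count in smooth muscle by library size alone was 2 higher and 5 lower, and in chondrocytes at 21% O2 the count was 3 higher and 3 lower. Bnip3, a mitophagy receptor and a classical target of hypoxia-inducible factor, rose with low oxygen in all 4 culture types: by 4.35 in proliferating cells, from 33.5 ± 0.974 to 656 ± 37.9 CPM, by 4.30 in osteoblasts, 4.31 in smooth muscle and 1.59 in chondrocytes, where its normoxic level was already 230 ± 78.3 CPM. Bmf, a BH3-only gene linked to loss of attachment, stood at 0.467 ± 0.325 CPM in normoxic proliferating cells and rose to 41.1 ± 4.22 CPM in chondrocytes, 92.0 ± 15.5 CPM in osteoblasts and 87.3 ± 6.57 CPM in smooth muscle. In the libraries labelled hypoxic smooth muscle it stood at 0.789 ± 0.838 CPM, and had dropped by 6.82 on the log2 scale against normoxic smooth muscle (edgeR adjusted p = 3.6e-09). Of 16 caspase and apoptosome genes, 3 rose and 11 fell in smooth muscle at low oxygen (median -1.04, beside -0.12 over all genes, 75.6% of which were called), 1 rose and 7 fell in osteoblasts (median -0.40, beside -0.032, 54.3% called), and 5 rose and 7 fell in proliferating cells (median 0.056, beside 0.015, 65.4% called). The smooth muscle count by library size alone was 0 higher and 15 lower, with a median of -2.41. By that scaling oxygen in chondrocytes gave 1 higher and 4 lower (median -0.23, beside -0.081 over all genes). From proliferating cells to chondrocytes, osteoblasts and smooth muscle it gave 3 and 10, 6 and 8 and 7 and 6 at 21% O2 (medians -0.52, -0.17 and 0.14, beside -0.35, -0.083 and 0.11). At 0.5% O2 these were 2 and 10, 1 and 10 and 0 and 16 (medians -0.73, -0.74 and -2.38, beside -0.35, -0.23 and -1.35). Cycs, the cytochrome c gene, fell with low oxygen by 1.88 in proliferating cells and 1.09 in osteoblasts. Of 8 death receptor genes, 4 rose and 3 fell from proliferating cells to chondrocytes at 21% O2, 4 rose and 3 fell to osteoblasts and 4 rose and 4 fell to smooth muscle, where 74.9%, 78.7% and 79.7% of all genes were called. At 0.5% O2 2 rose and 3 fell, 3 rose and 4 fell and 3 rose and 4 fell in the same order, where 69.5%, 71.3% and 70.0% were called. With low oxygen 3 rose and 1 fell in proliferating cells (65.4% of all genes called), 1 rose and 1 fell in chondrocytes (22.2%), 2 rose and 3 fell in osteoblasts (54.3%) and 2 rose and 5 fell in smooth muscle (75.6%). The oxygen counts by library size alone were 1 higher and 6 lower in osteoblasts and 0 higher and 7 lower in smooth muscle, and for hypoxic smooth muscle against proliferating cells 1 higher and 7 lower. Fas rose in all 6 differentiations, by 2.51 to 4.57, and fell with low oxygen in chondrocytes, osteoblasts and smooth muscle, by 1.09, 1.23 and 1.96; Casp8, whose product cleaves BID, fell from proliferating cells to osteoblasts by 1.59 at 21% O2 and 1.94 at 0.5% O2.

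For each member, the gene most alike in log2 CPM over the 28 libraries was sought among 13407 genes, as a description. For Bax it was Srp72 (Pearson r 0.978, and 0.944 over the 25 libraries without those labelled hypoxic smooth muscle), for Bak1 Slc20a1 (0.958 and 0.963), for Bcl2l11 Cpxm1 (0.954 and 0.956) and for Pmaip1 Il13ra1 (0.949 and 0.952). For Bad it was B3gat3 (0.936 and 0.927), for Bcl2 Marcks (0.934 and 0.934), for Bcl2l1 Tob2 (0.924 and 0.928), for Mcl1 Stt3b (0.885 and 0.904) and for Bid Dmp1 (0.884 and 0.832). The nearest gene depended on the scaling. By library size alone it was another gene for 6 of the 10 members: Prelid1 for Bax (0.954), Nudcd2 for Bak1 (0.958), Pnmal2 for Bcl2l11 (0.969), Clint1 for Mcl1 (0.956), Clcn5 for Bid (0.926) and Lrp2bp for Bbc3 (0.880). Among the 10 genes themselves, Bax and Bbc3 had r 0.81 (0.71 over the 25), Bcl2l1 and Mcl1 0.77 (0.78), and Bak1 and Bcl2l11 -0.79 (-0.88), the last moving to -0.21 by library size alone. The points are libraries of 8 groups and not independent, and no p is given. In the authors' deposited tables the log2 fold changes of the 10 genes had the sign given here in all 10 comparisons of groups, and differed from these by at most 0.0646.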

How the data were processed

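Polyadenylated RNA (400 ng a library, stranded kit, per the labels' protocols) of 28 O9-1 libraries was sequenced. The submitters' processing notes name HISAT2 2.0.5, StringTie 1.3.3b, featureCounts 1.5.0-p3 and the mm10 build; roles, annotation and strand setting are not given in the sources used here. The authors deposited whole-number read counts for 54429 genes, the values analysed here, beside 70 columns of normalised values that were not used. The authors' deposited tables of group comparisons give log2 fold changes and p-values, per the file headers; how they were made is not given in the sources used here, and they served as a check of sign and size only. Counts were filtered with filterByExpr (minimum 10, total 15), scaled by TMM and tested with edgeR 4.0.16 (quasi-likelihood, robust) under R 4.3.3, on the groups compared only, with Benjamini-Hochberg adjustment over all genes tested. Interactions used 4 groups. CPM used TMM over 28 libraries, RPKM the exon length of GENCODE release 21 (M series, GRCm38), log2 CPM a prior count of 2. Depth was 19869271 to 64693346 counts. No pair of replicates was alike within counting noise (chi-square per degree of freedom 2.89 to 97.05). Replicate numbers did not pair samples. Promoter sequences came from RefSeq (GRCm38.p6). Alternatives were size factors, library size alone, no filter, limma-voom 3.58.1, DESeq2 1.42.0, one fit of 28 libraries, a replicate block and leaving out each library. Simulated data were made for 2 comparisons only, smooth muscle against proliferating cells at 21% O2 and oxygen in smooth muscle. In both, at least 95% of genes changed by log2 2 were recovered. All 10 genes are named throughout; from each list, among called genes with a mean of at least 10 counts, no more than 2 that rose most and 2 that fell most in a comparison, and for each member the 1 most correlated. A list gene and the gene most correlated with Bbc3 are not reported here. Members and lists were chosen with earlier results of these data known.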

Additional observations from a re-analysis of the deposited data

Results flagged for a closer look

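The change of a differentiation differed between oxygen levels, by the interaction test of edgeR with adjusted p under 0.05, in 23 of 30 tests of the 10 genes. Over all genes tested, 43.5% were called for chondrocytes, 54.2% for osteoblasts and 70.4% for smooth muscle. All 3 sets of tests share their proliferating libraries. In smooth muscle the values (change at 0.5% O2 minus change at 21% O2, log2) were 3.17 for Bax, 1.39 for Pmaip1, 1.03 for Bad, 0.97 for Bak1, 0.80 for Mcl1, 0.66 for Bcl2l1, 0.60 for Bbc3, -2.42 for Bcl2 and -2.46 for Bcl2l11. By library size alone Bak1, Bad, Mcl1, Bcl2l1 and Bbc3 turned sign there and Pmaip1 lost its call, at 0.055; Bbc3 also lost it without replicate 1 of the libraries labelled hypoxic smooth muscle, at 0.46, and in the fit of all 28 libraries. In osteoblasts they were 2.31 for Bid, 1.70 for Bcl2l1, 0.92 for Bak1, 0.91 for Bax, 0.68 for Pmaip1, 0.58 for Mcl1, -0.51 for Bad and -0.56 for Bcl2l11. The Bcl2l11 call (edgeR adjusted p = 0.0477) was lost in 11 of the 14 runs without 1 library. In chondrocytes they were 0.70 for Bid, 0.68 for Bak1, 0.42 for Bad, -0.76 for Bcl2l11, -1.03 for Bbc3 and -1.88 for Pmaip1. Bid lost its call without normoxic chondrocyte replicate 3, hypoxic proliferating replicate 1 or 3, or hypoxic chondrocyte replicate 1 or 2, with values from 0.53 to 0.72, and Bad without hypoxic proliferating replicate 3, at 0.39, or hypoxic chondrocyte replicate 3, at 0.32. A single library stood far from the rest of its group in 2 of the 40 groups of 4 libraries tested, where chance gives about 1 in 20. Bbc3 was at 8.46 CPM in normoxic smooth muscle replicate 4 and at 6.20 to 6.37 CPM in the other 3. Bid was at 45.4 CPM in normoxic chondrocyte replicate 4 and at 27.0 to 29.6 CPM in the other 3.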

How the results depend on the processing

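Most values kept their sign and their side of the threshold. Of 130 log2 fold changes, DESeq2 turned 3 and moved 4 past the threshold, size factors turned 2 and moved 2 past it, limma-voom turned 0, moved 3 past it and lost 2, no filter turned 1, moved 5 past it and lost 3, one fit of all 28 libraries turned 1, moved 2 past it and lost 2, and library size alone turned 18, moved 12 past it and lost 7. Leaving out 1 library turned 20 of 1120, moved 22 past the threshold and lost 32. Where a value turned, the cause was not tested. By library size alone the turned values were, against normoxic proliferating cells, Bak1 -0.26 and Bbc3 -0.051 in chondrocytes and Bcl2 -0.024 in osteoblasts; against hypoxic proliferating cells, Bad -0.036 in osteoblasts and Mcl1 -0.82, Bbc3 -0.95, Pmaip1 -0.19 and Bcl2l11 -1.23 in smooth muscle. For oxygen they were Bcl2l11 -0.093 in osteoblasts and Bcl2l1 -0.88, Mcl1 -0.77, Bak1 -1.14 and Bad -0.61 in smooth muscle, and for the smooth muscle interaction Bcl2l1 -0.67, Mcl1 -0.54, Bak1 -0.36, Bbc3 -0.73 and Bad -0.31. That scaling moved the median of all genes to -1.49 for oxygen in smooth muscle, -1.35 for hypoxic smooth muscle against proliferating cells, -1.37 for the smooth muscle interaction, -0.35 and -0.35 for chondrocytes at 21% and 0.5% O2, -0.23 for hypoxic osteoblasts and -0.19 for oxygen in osteoblasts. The share of called genes that were higher went from 46.8% to 15.6% for oxygen in smooth muscle, 46.9% to 31.8% in chondrocytes and 49.6% to 36.9% in osteoblasts, from 50.3% to 34.7% and 50.2% to 31.8% for chondrocytes at 21% and 0.5% O2, from 50.8% to 38.2% for hypoxic osteoblasts, from 48.3% to 15.0% for hypoxic smooth muscle and from 49.6% to 16.6% for its interaction. Among the 10 genes, 8 were called in hypoxic smooth muscle against proliferating cells by library size alone, against 5. For oxygen in chondrocytes 1 was called with no filter, against 2, and 0 to 3 without 1 library, while all genes called went from 2091 (without hypoxic replicate 3) to 3359. For the lists, library size alone, added after the data were seen, turned the medians for oxygen of the p53 network in smooth muscle (-0.36) and chondrocytes (-0.062), of the stress factors in smooth muscle (-1.18) and of the caspases in proliferating cells (-0.019). Other turned values were small. With size factors Bcl2l1 was 0.029 in hypoxic smooth muscle and Mcl1 -0.014 in the chondrocyte interaction. With DESeq2 they were 0.029 and -0.013, and Bcl2l1 in the chondrocyte interaction was -0.00010. Bcl2l11 in hypoxic smooth muscle was -0.054 with no filter and -0.074 in one fit of all 28 libraries. Leaving out 1 library gave ranges across 0 for Bcl2 in normoxic osteoblasts (-0.030 to 0.32), Bcl2l1 in hypoxic chondrocytes (-0.35 to 0.094), Bcl2l1 (-0.10 to 0.035), Bcl2l11 (-0.033 to 0.092) and Bid (-0.72 to 0.032) in hypoxic smooth muscle, for oxygen in chondrocytes for Bcl2 (-0.060 to 0.23), Bcl2l1 (-0.39 to 0.052) and Bak1 (-0.10 to 0.031), for oxygen in osteoblasts for Bcl2l11 (-0.086 to 0.14), and for the chondrocyte interaction of Bcl2l1 (-0.25 to 0.20) and Mcl1 (-0.014 to 0.071).

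Replicate numbers did not pair the samples: the correlation of deviations between same-numbered libraries was -0.172 to 0.118, 0 of 10 comparisons had all pairs over 0.1, and 11 of 33 pairs correlated best with their own number. With the replicate number as a block, 1 of the 130 values turned (Bcl2l11 for oxygen in osteoblasts, -0.086), 7 moved past the threshold (Bbc3 in normoxic chondrocytes and smooth muscle, Pmaip1 in hypoxic osteoblasts, Bcl2l1 and Bax for oxygen in proliferating cells, Bak1 for oxygen in osteoblasts and smooth muscle) and 3 lost it (Bad for oxygen in proliferating cells, Pmaip1 for oxygen in chondrocytes, Bcl2l11 in the osteoblast interaction), and 1 of the 10 genes was called for oxygen in chondrocytes, against 2.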
